A study of Homo sapiens with 6 samples.

Results

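The spliceosome removes introns from pre-mRNA and is built from small nuclear ribonucleoproteins (snRNPs), each made of a small nuclear RNA and a set of proteins. The U1, U2, U4 and U5 snRNPs carry a ring of Sm proteins, the U6 snRNP carries a ring of LSM proteins, and each snRNP adds proteins of its own that read the splice sites, the branch point or the catalytic core. Sam68, the protein encoded by KHDRBS1, is an RNA-binding regulator of alternative splicing and is not a part of these particles. The question addressed here was whether the RNA of the core snRNP proteins changed when Sam68 was depleted.

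The genes were taken by symbol from the deposited expression table: the SNRP and SNRNP genes, the SF3A and SF3B genes, the U2AF genes, the PRPF genes other than PRPF4B, and the LSM genes. Of the 74852 loci listed, 56 met this rule, and 55 of them were among the 18849 loci with enough reads to be tested. The locus left out was SNRPD2P2, a pseudogene that is listed at 0 in all libraries. Of the 56 loci, 3 join the gene with others, so that U2AF1 is measured together with U2AF1L5, U2AF1L4 with IGFLR1, and SNRPN with SNURF, PWARSN and SNORD107. SF3B2 was not analysed here, and SF3B14 is an older name of SF3B6.

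The cells were MDA-MB-231, an established human cell line of triple-negative breast cancer, in which 3 libraries (si-CTRL) come from transfection of pooled control siRNAs and 3 libraries (si-SAM68) from 4 pooled siRNAs that target SAM68. Polyadenylated RNA was sequenced. The labels give 2 rounds of transfection and a harvest 24 h after the second, and the methods a harvest 48 h after transfection. All libraries come from this single line. Nothing states whether the libraries of a group were separate cultures, so that the spread between libraries behind the p-values may be technical. The p-values and SEs by limma combine the spread of a gene with that of other loci at a similar level. Reads on all loci were between 52625492 and 82568487 a library, and 0.563% to 0.677% of them fell on the 56 loci. Of the markers of the line, VIM and CD44 were abundant and not called (log2 fold changes of -0.14 and 0.17), whereas KRT8 (0.31, adjusted p = 0.0436 by limma) and KRT18 (0.35, adjusted p = 0.0144) were abundant and rose with separate groups. The part of this rise in the snRNP results was not tested. ESR1, PGR, CDH1, EPCAM, DCN, LUM and 4 of 4 leukocyte markers did not reach the minimum for testing. ERBB2 did, with a si-CTRL mean of 2822 normalized reads, as did PECAM1 and VWF with 13.7 and 15.1 and PDGFRA with 4747 at a locus joined with FIP1L1, and none of these 4 was called.

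The 4 siRNAs of the SAM68 pool are shown because they define the perturbation, with the bases that pair with the seed of the guide strand (guide positions 2 to 8) in capitals. Each matches the coding sequence of KHDRBS1 on the plus strand of chromosome 1 (GRCh38), in exons 9, 2, 5 and 3 of 9 in the order printed.

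siSAM68_1 (chr1:32042603-32042621): gcacccauaugGACGUUAu

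siSAM68_2 (chr1:32030383-32030401): gaaagagcgagUGCUGAUa

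siSAM68_3 (chr1:32036912-32036930): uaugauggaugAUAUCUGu

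siSAM68_4 (chr1:32031595-32031613): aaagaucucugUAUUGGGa

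The normalized read count of KHDRBS1 was 15660.4, 14483 and 14737 in the si-CTRL libraries (replicates 1, 2 and 3, an order kept throughout) and 583, 602 and 670.2 in the si-SAM68 libraries. The si-SAM68 mean was 4.13% of the si-CTRL mean (p = 0.1 in a two-sided exact permutation test, whose smallest p is 0.1 for 3 libraries against 3).

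Among the 55 genes tested, 16 (29.1%) had a match to at least 1 of these 4 seeds in the 3'UTR of the principal transcript (GENCODE 29), against 26.0% of the 13363 genes with such a 3'UTR. Their median log2 fold change was 0.01, and that of the 39 genes without a match was 0.04 (0.035). SNRPA1, which encodes the A' protein of the U2 snRNP, was the only gene with both a match and an adjusted p-value under 0.05. Its match, shown because it is the site in a gene that fell, lies in exon 9 of 9 on the minus strand (chr15:101281591-101281597, GRCh38), in a 3'UTR of 214 bases. The 7 matching bases are in capitals within 27 bases of the 3'UTR.

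SNRPA1 site for siSAM68_2: ttaagactgcTGCTGATaattttgtaa

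Whether an siRNA acted on this site was not tested. LSM10 and LSM8 had no match to any of the 4 seeds.

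si-CTRL replicate 1 stood apart from the other libraries for these genes. In 43 of the 55 genes (78.2%) this library had either the highest or the lowest value of all 6, whereas the figure was 55.8% over all loci tested and 64.4% over the 8015 loci with a si-CTRL mean over 1000. It had the highest value for 23 genes and the lowest for 20. Of the 20, 15 were Sm or LSM genes, and the transcripts of the 20 had a median length of 1493 bases against 2452 bases for the 23. Over the 55 genes, the deviation of a gene from its own mean had a Spearman correlation with length of 0.26 in this library. It was -0.33 in si-CTRL replicate 2 and -0.42 in si-CTRL replicate 3. In si-SAM68 replicate 2 rRNA made up 15.1% of the reads, and at most 3.17% elsewhere, and with it left out the snRNP protein genes held 6.63 to 6.94 of every 1000 reads in all 6 libraries. In si-SAM68 replicate 3 the deviation of a gene from its own mean followed its GC content, with a Spearman correlation of -0.62 over the 55 genes and -0.45 over 14374 loci. These correlations are descriptions across genes, which share the libraries.

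**Figure D1:**
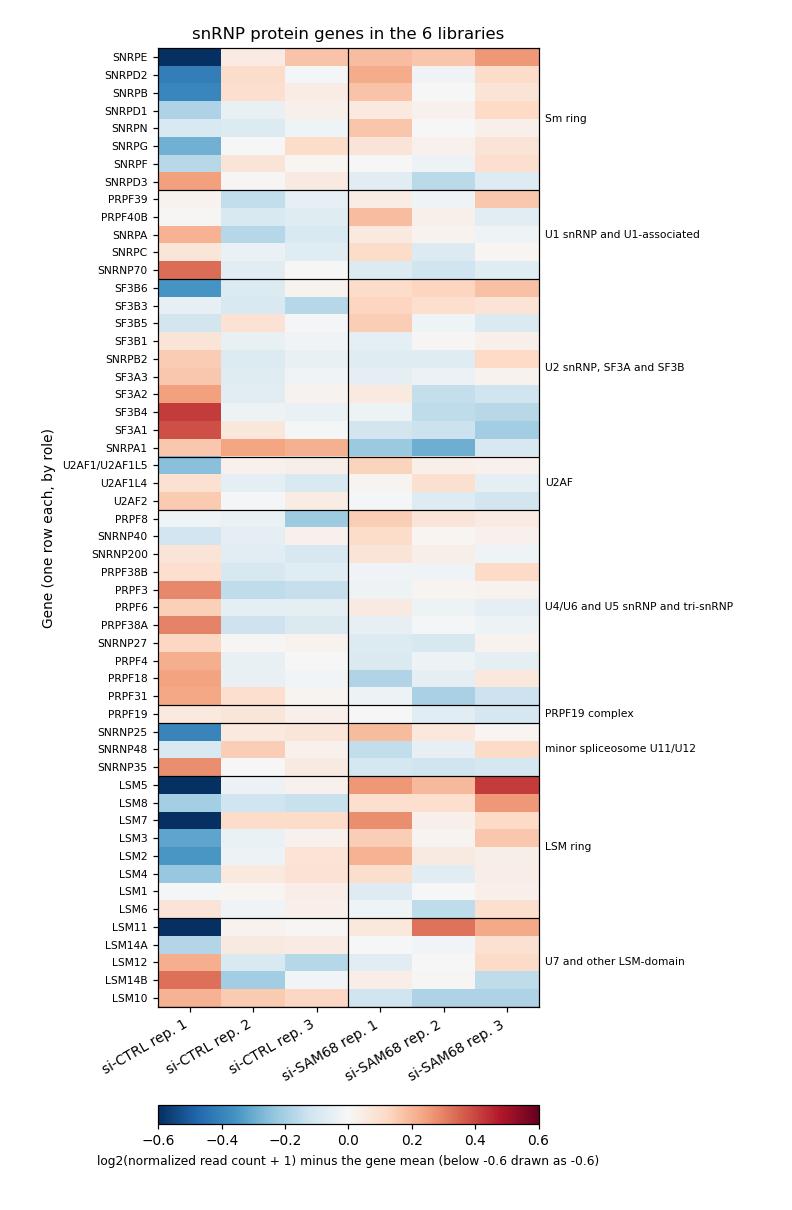
Heat map of 54 of the 55 genes tested (rows, by role) in the 6 libraries (columns). Colour gives log2(normalized read count + 1) minus the mean of the gene over the 6 libraries, with values below -0.6 drawn as -0.6. The column of si-CTRL replicate 1 holds the highest or lowest value in 42 of the 54 rows.

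Differences between the groups were small across the core snRNP genes. Of the 55 tested, 3 had an adjusted p-value under 0.05 (limma with Benjamini-Hochberg adjustment over all loci), which is 5.45% against a background of 10.7% of all loci. They were SNRPA1 and LSM10, which fell (2 genes, background 6.23%), and LSM8, which rose (1 gene, background 4.47%). None passed the thresholds of the study, an unadjusted p-value of at most 0.05 with a fold change of at least 1.5, which 7.67% of all loci passed (2.83% higher and 4.83% lower). A fold change of at least 1.5 alone was reached by 11.4% of all loci. It was reached by 3.06% of the 8015 loci with a si-CTRL mean over 1000, where 52 of the 55 genes lie. Before adjustment, 12 genes had a p-value under 0.05 (21.8%, background 27.0%), 6 of them higher (background 12.8%) and 6 lower (background 14.1%). The groups did not overlap for 16 genes (29.1%, background 33.9%). In bulk RNA, a change in the RNA per cell cannot be told apart from a change in which cells make up the culture.

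The log2 fold changes lay between -0.41 and 0.58, with 31 genes above 0 and 24 below. Their median was 0.03, against 0.01 (0.00503) over all loci, and the median size regardless of sign was 0.12 against 0.19. A change of at least 1.2-fold was seen for 9 genes (16.4%), against 37.9% of all loci and 23.0% of loci with a si-CTRL mean over 1000. The 95% confidence interval lay within a change of 1.5-fold in either direction for 50 of the 55 genes, or 90.9%. Over all loci this held for 56.2%, and over the 8015 loci with a si-CTRL mean over 1000, where 52 of the 55 genes lie, it held for 86.9%. The 5 genes with wider intervals were SNRPE, SNRPA1, LSM5, LSM7 and LSM11. It lay within a change of 1.2-fold for 15 genes (27.3%), against 23.1% of the same 8015 loci.

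**Figure D2:**
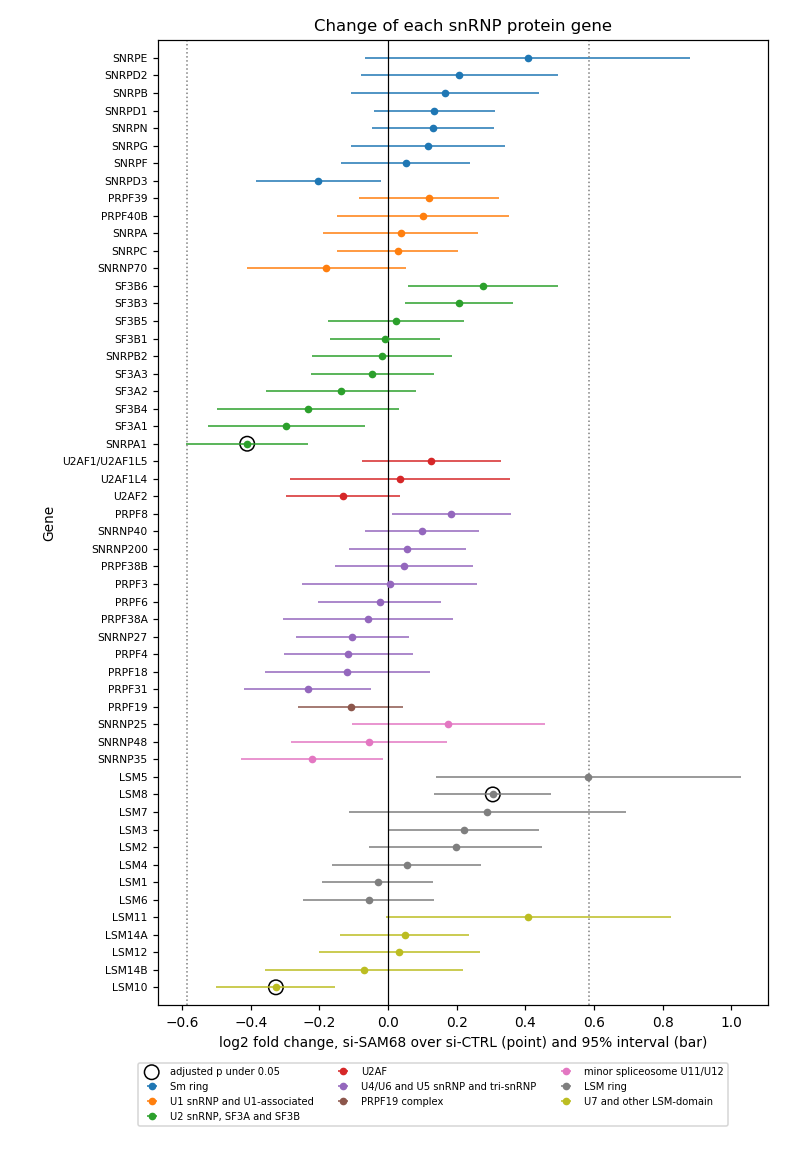
Log2 fold change of si-SAM68 over si-CTRL for 54 of the 55 genes (points, coloured by role) with its 95% confidence interval by limma (bars). Dotted lines mark 1.5-fold, and circles mark the 3 genes with an adjusted p-value under 0.05. All points lie between the dotted lines, from -0.41 for SNRPA1 to 0.58 for LSM5.

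Within the Sm ring, which is assembled in the cytoplasm on the snRNA and is shared by U1, U2, U4 and U5, 0 of 8 genes were called, and 7 of 8 had values above 0. SNRPG, SNRPD2, SNRPB and SNRPD3 had the highest levels per kilobase of transcript, at 28524, 15017, 11544 and 10453 normalized reads per kilobase in si-CTRL cells. These levels depend on the annotated transcript lengths, and SNRPG (20 pseudogenes named after it in GENCODE), SNRPE (9) and SNRPF (4) can share reads with copies.

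SNRPE had normalized read counts of 5559, 10249 and 11157 in the si-CTRL libraries and 11243, 11096 and 11876 in the si-SAM68 libraries. The groups overlapped, and si-CTRL replicate 1 alone lay far below the rest. The log2 fold change was 0.41 (standard error, SE, 0.212, adjusted p = 0.250 by limma) and 0.09 without si-CTRL replicate 1. The locus of SNRPE also overlaps that of ZC3H11A and ZBED6.

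SNRPD3 was the sole Sm gene with a value below 0. Its normalized read counts were 20299.8, 17213 and 17775 in si-CTRL and 16346, 15335 and 16237 in si-SAM68 libraries. Each si-SAM68 library lay below each si-CTRL library, with a log2 fold change of -0.20 (SE 0.0820, adjusted p = 0.145 by limma) that was -0.13 without si-CTRL replicate 1, its highest library.

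SNRPD2 had a log2 fold change of 0.21, SNRPB 0.17, SNRPD1 0.13 (0.135), SNRPN 0.13 (0.1298), SNRPG 0.12 and SNRPF 0.05, with adjusted p-values between 0.305 and 0.742 by limma. Of these, SNRPN alone had separate groups. SNRPG and SNRPF were at -0.03 and -0.08 once a trend with transcript length and GC content was removed from each library. Without si-CTRL replicate 1 the median of the 8 genes went from 0.13 to 0.03. SNRPN, from the imprinted region of chromosome 15, is the paralog of SNRPB, and its locus gave a level per length of 0.117, 0.117 and 0.113 times that of SNRPB in si-SAM68 libraries and of 0.145, 0.103 and 0.112 times in si-CTRL libraries. This ratio overlapped between the groups.

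The U1 snRNP recognizes the 5' splice site, through its snRNA and through the SNRNP70, SNRPA and SNRPC proteins, and PRPF39 and PRPF40B associate with it. None of these 5 genes was called, and their log2 fold changes ran from -0.18 for SNRNP70 to 0.12 for PRPF39. SNRNP70 had 10669, 8079 and 8428 normalized reads in si-CTRL and 7987, 7783 and 8037 in si-SAM68 libraries. Although the groups did not overlap, the distance was small beside that between the si-CTRL libraries (SE 0.103, adjusted p = 0.296 by limma), and the log2 fold change was -0.06 without si-CTRL replicate 1. For SNRPC, SNRPA and PRPF40B the values were 0.03, 0.04 and 0.10, and 0.07, 0.15 and 0.13 without that library.

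The U2 snRNP, which binds the branch point, held the decrease with the smallest adjusted p-value. SNRPA1 had normalized read counts of 3768, 3965 and 3903 in si-CTRL and 2879, 2743 and 3145 in si-SAM68 libraries. Every si-SAM68 library was lower than every si-CTRL library, and here si-CTRL replicate 1 lay with the other controls. The means were 3879 ± 100.7 (SD, n = 3) and 2922 ± 204.2 (SD, n = 3), a log2 fold change of -0.41 (SE 0.0797, adjusted p = 0.0125 by limma). It stayed between -0.46 and -0.37 with each library left out in turn, and the adjusted p-value passed 0.05 when si-SAM68 replicate 1 (0.0515) or replicate 2 (0.0743) was the one left out. It was 0.0555 without a variance trend, where no core gene was called.

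SNRPB2 encodes the B'' protein that sits next to the A' protein on the U2 snRNA. Its normalized read counts were 5789, 4923 and 5043 in si-CTRL and 4949, 4956 and 5658 in si-SAM68 libraries, with a log2 fold change of -0.02 (95% interval -0.22 to 0.19). The groups overlapped throughout. The level of SNRPA1 per length was 1.51, 1.87 and 1.80 times that of SNRPB2 in si-CTRL libraries and 1.35, 1.29 and 1.29 times in si-SAM68 libraries. The ratio was lower in 3 of 3 si-SAM68 libraries (p = 0.1 in the same exact test, its smallest p). The pairs of genes given as ratios, 8 in all, were chosen after their values were seen. A ratio that holds a called gene uses the values of that gene again and is not a second test of it.

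SF3A and SF3B are the protein complexes that complete the U2 snRNP, and SF3B1 is the subunit that holds the branch point. SF3B1 had a log2 fold change of -0.01 (95% interval -0.17 to 0.15), SF3A3 -0.05, SF3B5 0.02, SF3A2 -0.14 and SF3B4 -0.23, with adjusted p-values of 0.242 or more by limma. Without si-CTRL replicate 1, SF3A2 was at -0.05 and SF3B4 at -0.08. SF3B6, which sits at the branch point, was the highest of the group. Its normalized read counts were 8130.2, 9833 and 10558 in si-CTRL and 11213, 11391 and 11748 in si-SAM68 libraries. The groups were separate, at a log2 fold change of 0.28 (SE 0.0977, adjusted p = 0.101 by limma) and of 0.17 without si-CTRL replicate 1.

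SF3B3 and SF3A1 were named after their values were seen, since their groups did not overlap either. SF3B3 had 33487, 32496 and 30778 normalized reads in si-CTRL and 37865, 37064 and 36605 in si-SAM68 libraries. The log2 fold change was 0.21 (SE 0.0703, adjusted p = 0.0927 by limma), and the adjusted p-value was 0.0170 with the length and GC trend removed. It was 0.0236 without si-CTRL replicate 1, so that SF3B3 was called under either of these settings. Under the first 17.3% of the 14374 loci with a length were called, and under the second 15.1% of all loci. SF3A1 had 15640.4, 12553 and 11918 normalized reads in si-CTRL and 11114, 10963 and 10376 in si-SAM68 libraries. Its log2 fold change of -0.30 (adjusted p = 0.0953 by limma) was -0.18 without si-CTRL replicate 1. DESeq2 called it with all libraries in (adjusted p = 0.0436), along with 14.8% of all loci.

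The U2AF dimer reads the 3' splice site, U2AF2 the polypyrimidine tract and U2AF1 the AG. None of the 3 loci was called. U2AF2 had a log2 fold change of -0.13 (95% interval -0.30 to 0.03), which became 0.00 (0.0014) with the length and GC trend removed, and its groups did not overlap. The joined locus of U2AF1 and U2AF1L5 had 0.13 (95% interval -0.08 to 0.33), and 0.03 without si-CTRL replicate 1. U2AF1L4, with a si-CTRL mean of 125 normalized reads, had 0.04 (0.035).

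The U4/U6 and U5 snRNPs join as the tri-snRNP and bring the catalytic centre. None of the 11 genes listed here with these particles was called, and their median log2 fold change was -0.02, and 0.07 without si-CTRL replicate 1. PRPF8, the scaffold of the catalytic core, was the highest. Its normalized read counts were 8411, 8349.8 and 7398 in si-CTRL and 9499.95, 9056 and 8867 in si-SAM68 libraries. All 3 si-SAM68 libraries were above all 3 si-CTRL libraries, with a log2 fold change of 0.18 (SE 0.0782, adjusted p = 0.164 by limma). With the length and GC trend removed it was 0.28 with an adjusted p-value of 0.0153, so that this gene too was called under that setting. That setting called 17.3% of the 14374 loci with a length.

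PRPF31, a U4/U6 protein that links the di-snRNP to U5, was the lowest of the tri-snRNP. It had 7613, 6956 and 6561 normalized reads in si-CTRL and 6349, 5656 and 5947 in si-SAM68 libraries. The groups were separate, the log2 fold change was -0.23 (SE 0.0832) and the adjusted p-value 0.104 by limma. The helicase SNRNP200, which unwinds U4 from U6, had 0.06 (95% interval -0.12 to 0.23). The other genes of this list, PRPF3, PRPF4, PRPF6, PRPF18, PRPF38A, PRPF38B, SNRNP27 and SNRNP40, lay between -0.12 and 0.10, all with overlapping groups. PRPF19, the ubiquitin ligase of the complex that activates the spliceosome, had -0.11 (95% interval -0.26 to 0.04), with 3 of 3 si-SAM68 libraries below the si-CTRL libraries. With the length and GC trend removed it was at -0.01 (-0.0144).

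SNRNP25, SNRNP35 and SNRNP48 are particular to the U11/U12 di-snRNP, which recognizes the rare U12-type introns, and none of the genes was called. SNRNP35 had 1956, 1614 and 1677 normalized reads in si-CTRL and 1501, 1484 and 1502 in si-SAM68 libraries. These were separate groups, with a log2 fold change of -0.22 (SE 0.0927, adjusted p = 0.161 by limma) that was -0.14 without si-CTRL replicate 1. SNRNP25 had 0.18 and SNRNP48 -0.06, both with overlapping groups. SNRNP25 went to 0.02 without si-CTRL replicate 1, in which it was lowest.

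LSM2 to LSM8 form the ring on the 3' end of U6 snRNA in the nucleus, whereas LSM1 takes the place of LSM8 in the cytoplasmic ring that promotes decapping and decay of mRNA. Of these 8 genes, 6 had values above 0 and 1 was called. The median log2 fold change was 0.21, the highest of the groups by role. Without si-CTRL replicate 1, in which 6 of the 8 genes had their lowest value, it was 0.05 and no longer the highest, being below the 0.10 of the U1 genes.

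LSM8 was the called gene. It had normalized read counts of 5111, 5407 and 5368 in si-CTRL and 6303, 6302 and 7042 in si-SAM68 libraries. All si-SAM68 libraries lay above all si-CTRL libraries, and si-CTRL replicate 1 was close to the other controls. The means were 5295 ± 161.3 (SD, n = 3) and 6549 ± 426.8 (SD, n = 3), a log2 fold change of 0.30 (0.305, SE 0.0766, adjusted p = 0.0336 by limma). With the length and GC trend removed it was 0.18 with an adjusted p-value of 0.0967, and the transcript has a GC content of 37.3%, under the median of 48.5% of the 55 genes. The call was lost without any 1 of the libraries other than si-CTRL replicate 1.

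LSM1, the cytoplasmic counterpart, had 3581, 3620.4 and 3702 normalized reads in si-CTRL and 3409, 3599 and 3675 in si-SAM68 libraries. The groups overlapped, at a log2 fold change of -0.03 (95% interval -0.19 to 0.13). The level of LSM8 per length was 1.25, 1.31 and 1.27 times that of LSM1 in si-CTRL libraries and 1.63, 1.54 and 1.68 times in si-SAM68 libraries. This ratio was higher in 3 of 3 si-SAM68 libraries (p = 0.1 in the exact test, its smallest p), and it uses the LSM8 values again.

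LSM5 had the highest log2 fold change of all 55 genes without being called. Its normalized read counts were 3688, 6558 and 6851 in si-CTRL and 8047, 7701 and 8980.1 in si-SAM68 libraries. The groups were separate, but the si-CTRL libraries spread widely because of replicate 1. The log2 fold change of 0.58 (SE 0.199, adjusted p = 0.0927 by limma) was 0.30 (0.295) without that library, with an adjusted p-value of 0.0209. DESeq2 called it with all libraries in (adjusted p = 0.0193). Over all loci the share called was 15.1% without si-CTRL replicate 1 and 14.8% by DESeq2. LSM3, named after its value was seen, had 0.22 with an unadjusted p-value of 0.0488 and an adjusted p-value of 0.183, both by limma over all loci. LSM7 had 0.29, LSM2 0.20, LSM4 0.05 and LSM6 -0.06, all with overlapping groups. Without si-CTRL replicate 1, LSM3 was at 0.12, LSM7 at 0.04, LSM2 at 0.07 and LSM4 at -0.05.

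**Figure D3:**
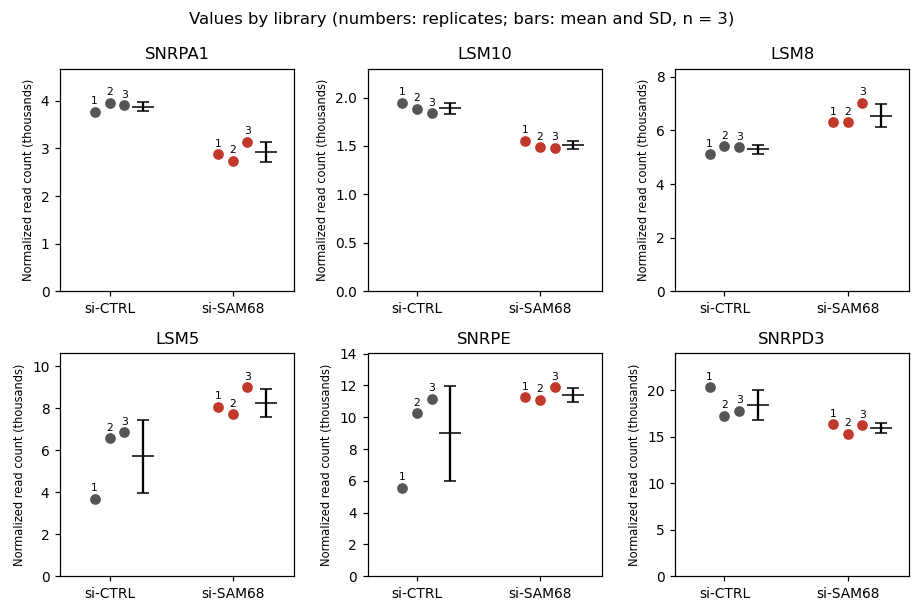
Normalized read count (in units of 1000, linear axis from 0) of the 3 called genes in the upper row (SNRPA1, LSM10, LSM8) and of LSM5, SNRPE and SNRPD3, by group. Points are libraries with their replicate number, and bars give the mean and SD of 3 libraries. The groups are separate in all panels but that of SNRPE, and si-CTRL replicate 1 lies far below the other libraries for LSM5 and SNRPE.

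LSM10 and LSM11 replace 2 of the Sm proteins in the U7 snRNP, which cuts the 3' end of histone pre-mRNA and takes no part in splicing. LSM10 had normalized read counts of 1948, 1884 and 1839 in si-CTRL and of 1553, 1485 and 1482 in si-SAM68 libraries. All si-SAM68 libraries were lower than all si-CTRL libraries. The means were 1890.3 ± 55.2 (SD, n = 3) and 1507 ± 40.4 (SD, n = 3), a log2 fold change of -0.33 (SE 0.0778, adjusted p = 0.0275 by limma). The call was held without si-CTRL replicate 1 and lost without any other library, with adjusted p-values up to 0.124 and log2 fold changes between -0.35 and -0.30. It was also lost without a variance trend (0.0657) and with the length and GC trend removed together with the replicate block (0.0591).

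LSM11 is far less abundant, with 142, 226 and 223 normalized reads in si-CTRL and 233, 279 and 260.3 in si-SAM68 libraries. Its groups were separate by a narrow margin, at a log2 fold change of 0.41 (SE 0.186, adjusted p = 0.191 by limma) that was 0.19 without si-CTRL replicate 1. The level of LSM10 per length was 106, 64.7 and 63.7 times that of LSM11 in si-CTRL and 51.7, 41.3 and 44.1 times in si-SAM68 libraries. The ratio was lower in 3 of 3 si-SAM68 libraries, which follows from LSM10 being lower and LSM11 higher in each of them. The 106 is that of si-CTRL replicate 1, where LSM11 was lowest.

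Of the histone loci listed, 10 of 10 had values above 0, as did 9591 of the 18849 loci tested. The median log2 fold change was 0.90. Of the 10, 1 was called (background 10.7%), HIST1H1C, with 0.64 (adjusted p = 0.00929 by limma). The si-SAM68 libraries lay above the si-CTRL libraries for 3 of the 10, HIST1H1C among them (background 16.6%). All 10 had their highest value in si-SAM68 replicate 2, the library with the high rRNA share, and without it the median was 0.25 with 7 of 10 above 0. The part of that library in the histone values was not tested. LSM12, LSM14A and LSM14B, which hold an LSM domain outside the snRNPs, had log2 fold changes of 0.03, 0.05 and -0.07 with overlapping groups, and of 0.15, -0.03 and 0.08 without si-CTRL replicate 1.

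**Figure D4:**
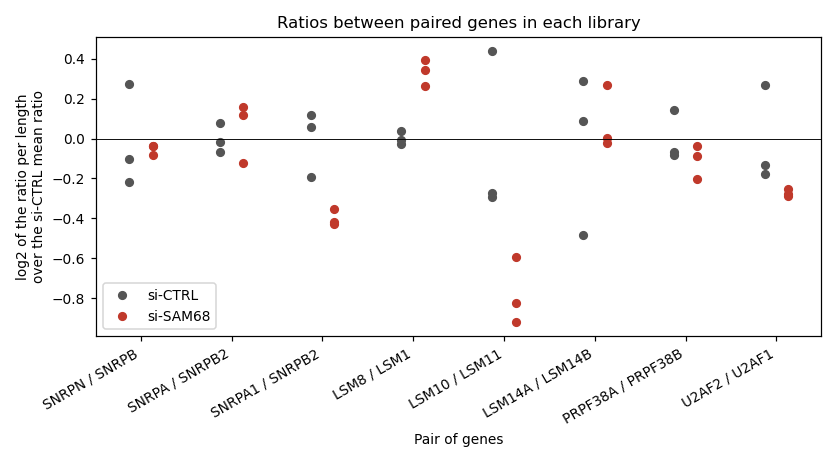
Log2 of the ratio between 2 genes, each per transcript length, in each library, relative to the mean ratio of the si-CTRL libraries. Points are libraries of si-CTRL (grey) and si-SAM68 (red) for 8 pairs. SNRPA1 / SNRPB2, LSM8 / LSM1, LSM10 / LSM11 and U2AF2 / U2AF1 are the pairs whose groups do not overlap.

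Overlapping annotation limits some of these genes. The loci of 17 of the 55 genes overlap another tested locus in the table (hg19), and whether strand was used in counting is not given in the sources used here. Among them are SNRPE, SNRPD3, SF3A1, SF3B3, PRPF31, SNRNP35, LSM3 and LSM7, whereas SNRPA1, LSM8 and LSM10 overlap no other tested locus.

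The promoters of the 3 called genes are shown because those genes passed the test, with what they share with the rest of the group. The sequences are from RefSeq (GRCh38.p14), 250 bases before to 50 after the annotated start, 5' to 3' on the strand of the gene, and were found for 46 of the genes. Capitals mark the letters CCGGAAG, the core of an ETS factor site, on either strand.

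SNRPA1 (chr15:101295199-101295498, minus): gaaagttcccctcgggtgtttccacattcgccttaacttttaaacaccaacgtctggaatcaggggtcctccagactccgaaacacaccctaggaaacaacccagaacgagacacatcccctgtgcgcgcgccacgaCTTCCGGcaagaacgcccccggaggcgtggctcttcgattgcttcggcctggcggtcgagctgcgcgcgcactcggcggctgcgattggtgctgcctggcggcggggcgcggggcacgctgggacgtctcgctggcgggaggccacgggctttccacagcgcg

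LSM8 (chr7:118183914-118184213, plus): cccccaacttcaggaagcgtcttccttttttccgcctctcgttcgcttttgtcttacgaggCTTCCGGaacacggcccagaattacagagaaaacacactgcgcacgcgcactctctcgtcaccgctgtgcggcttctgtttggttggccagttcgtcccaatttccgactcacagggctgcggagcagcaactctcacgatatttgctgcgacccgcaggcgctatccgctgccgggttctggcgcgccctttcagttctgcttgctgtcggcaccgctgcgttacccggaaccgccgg

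LSM10 (chr1:36397859-36398158, minus): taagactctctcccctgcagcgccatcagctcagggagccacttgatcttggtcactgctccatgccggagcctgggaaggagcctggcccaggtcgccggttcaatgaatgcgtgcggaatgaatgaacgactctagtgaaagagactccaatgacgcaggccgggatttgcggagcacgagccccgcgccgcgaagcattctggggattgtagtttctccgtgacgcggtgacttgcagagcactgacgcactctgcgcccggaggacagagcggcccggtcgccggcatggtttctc

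The CCGGAAG match lay on the opposite strand, 113 bases before the start in SNRPA1 and 189 bases before it in LSM8, and LSM10 held none. It was found in 19 of the 46 promoters (41.3%), against 17.9% of the 11113 promoters of tested genes and 10.7% of all 27305 promoters of this length. The letters AAGATGGCG (YY1) were in 3 of the 46 (6.52%, 3.67% of tested genes), GCGCATGCG (NRF1) in 3 (6.52%, 3.50%), on either strand. The E-box CACGTG was in 2 (4.35%, 9.96%). A TATA box, searched as TATAAA on either strand, was in 1 promoter (2.17%), against 5.89% of those of tested genes. The median GC content of the 46 promoters was 60.3%, and that of tested genes 65.0%. A match is a description of the letters and does not show that a factor binds.

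The other genes of the pathway were taken from lists of spliceosome, assembly and exon junction genes. Of 110 genes listed, 87 loci were tested and 2 were called (2.30%, background 10.7%), both in the list of snRNP assembly and import. The joined locus of SMN1 and SMN2, which encode the protein that loads the Sm ring onto snRNA, had normalized read counts of 24238, 22402 and 23876 in si-CTRL and 18279.6, 18515 and 19616 in si-SAM68 libraries. The groups were separate, and the log2 fold change was -0.32 (SE 0.0716, adjusted p = 0.0212 by limma). The call was lost without si-CTRL replicate 3 or any 1 of the si-SAM68 libraries, with adjusted p-values between 0.0603 and 0.101, and without a variance trend (0.0777). SMN1 and SMN2 are near-identical copies that the locus does not tell apart.

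CLNS1A, the chaperone that holds Sm proteins before the ring closes, had 4677, 4610.2 and 4874 normalized reads in si-CTRL and 5549, 5518 and 5758 in si-SAM68 libraries. It rose by a log2 fold change of 0.25 (SE 0.0701), also with separate groups, and its adjusted p-value of 0.04996 by limma was just under the threshold. With the replicate number as a block, the adjusted p-value was 0.0689, and the call was lost without any 1 of the libraries other than si-CTRL replicate 1. The other 15 loci of this list were not called.

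None of the 32 other snRNP and spliceosome proteins, the 28 partners of PRPF19 and step factors and the 8 proteins of the exon junction complex was called, with median log2 fold changes of -0.02, 0.00 (0.00176) and -0.05. Before adjustment, 4, 3 and 0 of them had a p-value under 0.05, against a background of 27.0% of all loci. Of the spliceosomal snRNAs, which have no poly(A) tail, 3 loci reached the minimum (RNU11, RNU4ATAC and RNU6ATAC), with at most 48.8 normalized reads in any library, and none was called. Of 20 proliferation genes, given because snRNP genes are high in growing cells, 2 were called (background 10.7%), both lower (MCM5 and TYMS). The median of the 20 was -0.03. Before adjustment 10 of the 20 had a p-value under 0.05, 3 higher and 7 lower, against a background of 27.0%, and 11 had separate groups (background 33.9%). MCM2 to MCM7, subunits of the replicative helicase, lay between -0.37 and -0.13, whereas TOP2A, CDK1, CCNB1 and CCNB2 lay between 0.18 and 0.36. Of the rest, PLK1 (-0.26) and TYMS (-0.33) were lower with separate groups. MKI67, PCNA, CCNA2, BUB1, AURKA, AURKB, BIRC5 and RRM2 lay between -0.07 and 0.10, all with overlapping groups. These groupings were made after the values were seen, and the part of the proliferation genes in the snRNP results was not tested.

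**Figure D5:**
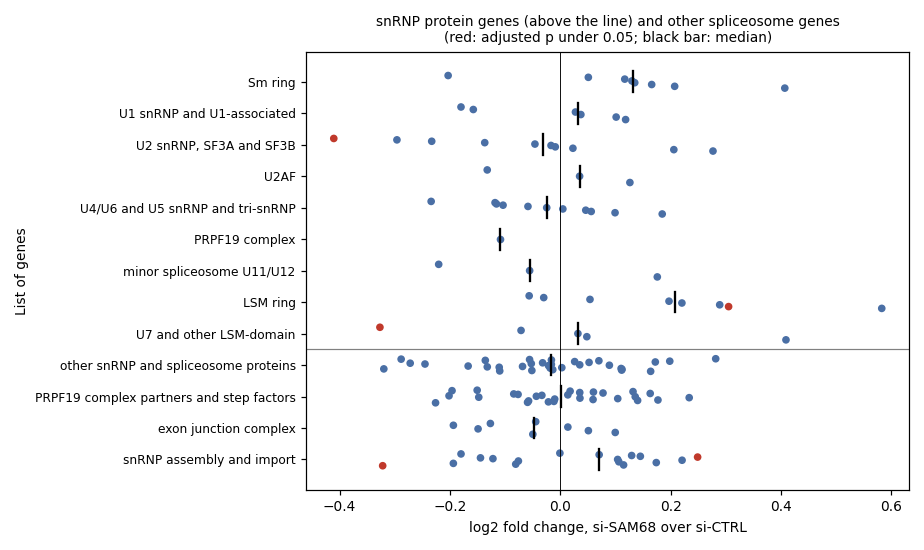
Log2 fold change of si-SAM68 over si-CTRL for the snRNP protein genes by role (above the line) and for 4 lists of other spliceosome genes (below the line). Points are loci, red where the adjusted p-value was under 0.05, and black bars are medians. The LSM ring has the highest median (0.21, but 0.05 without si-CTRL replicate 1, below the U1 genes), and 3 core genes and 2 assembly genes are red.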

How the data were processed

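The authors deposited a signal for every locus of FAST DB (build hg19): reads on the locus over a DESeq2 size factor per library. The submitters' processing notes name STAR 2.4.0, and the counting program and its use of strand are not given in the sources used here. Dividing each column by its smallest step returned whole reads for 100% of values (tolerance 0.01), used for edgeR and DESeq2 only. In si-SAM68 replicate 1 that step was 1.007. All 6 libraries were assigned from their labels.

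Loci with a mean of at least 10 (18849) were tested on log2(normalized read count + 1) with limma 3.58.1 in R 4.3.3 (lmFit, eBayes with trend, group only, two-sided). A fold change is on that scale, which understates the change of genes with few reads. P-values were adjusted by Benjamini and Hochberg over all loci, and a gene was called under 0.05. The members and the lists were chosen with earlier results of these data known, so that counts over them are descriptions. Counts cover all 55 genes tested, of which 1 is not reported by name here. Named genes are KHDRBS1, the called genes, the Sm ring, the highest and lowest gene of each role, and up to 5 called genes in each direction of the other lists. Transcript lengths and GC content are those of the principal transcript in GENCODE 29.

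The replicate numbers come from the titles. The correlation of deviations from the group means was 0.105, 0.231 and 0.125 for libraries of the same number. It was between -0.125 and 0.007 for others, so that the numbers were taken to pair the libraries in the replicate block. The main fit (group only) and the exact tests did not use this pairing. The alternatives were other pseudocounts, filters and scalings, eBayes without a trend, the replicate block, removal of a length and GC trend, edgeR 4.0.16 and DESeq2 1.42.0, and each library left out in turn. The depth per library (52625492 to 82568487 reads) sets counting error only, and 3 libraries a group limit the precision. The limma and edgeR fits were tested on simulated counts with changes of at least 1.5-fold, no outlying library and no length or GC trend. Of 200 changed loci limma recovered 176 with 6 false calls, and edgeR 178 with 7. This does not cover smaller changes, such as those of the core genes.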

Additional observations from a re-analysis of the deposited data

How the results depend on the processing

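In the main analysis 1 core gene was called higher and 2 lower, and 1 and 1 of the other spliceosome genes. Without a filter these were 0 and 2, and 0 and 1 (LSM8 and CLNS1A lost), with 33359 loci fitted and adjusted for. Of those loci 4.50% were called, and 3.64% of core genes. Without a variance trend all 4 counts were 0, and 4.77% of all loci were called. In that setting 5 core genes had an unadjusted p under 0.05 by limma. With edgeR, 3 core genes were called (5.45%, against 10.7% of all loci). With a pseudocount of 0.1 or with edgeR, 0 other spliceosome genes were higher. With the replicate block the same 3 core genes were called (adjusted p = 0.0260, 0.0458 and 0.0473) and 0 other genes were higher, CLNS1A being the only call it changed. Removal of the length and GC trend gave 2 higher and 2 lower core genes (LSM8 lost, SF3B3 and PRPF8 added) and 3 and 3 others. With that removal and the replicate block these were 2 and 1 (LSM10 also lost), and 1 and 2. Of the 14374 loci with a length, 17.3% were called with the removal, 13.2% with removal and block, and 14.1% without either. The shares of core genes were 7.27%, 5.45% and 5.45%. DESeq2 called 2 core genes higher and 3 lower (LSM5 and SF3A1 added), and 3 others lower. It called 14.8% of all loci and 9.09% of core genes. SNRPG (-0.0325), SNRPF (-0.0796) and U2AF2 (0.0014) changed sign with the trend removed, with and without the block. With each library left out, core calls ran from 0 to 3 higher and 0 to 2 lower, core genes at the thresholds of the study from 0 to 2 higher, other spliceosome calls from 0 to 4 higher and 0 to 5 lower, and the median log2 fold change from -0.00 (-0.00086) to 0.04 (0.0403). SNRPF ran from -0.0188 (without si-CTRL replicate 1) to 0.103, and LSM6 from -0.117 to 0.00576 (without si-SAM68 replicate 2). The most adjusted calls were made without si-CTRL replicate 1 (15.1% of loci, 9.09% of core genes), and the fewest without si-SAM68 replicate 3 (3.32% of loci). No core gene was called without si-SAM68 replicate 1 or 2, where 4.90% and 4.29% of loci were called. There 8 and 7 core genes had an unadjusted p under 0.05 by limma. The share of all loci at an unadjusted p under 0.05 was not computed for the alternatives. The cause of these differences between settings was not tested. KHDRBS1 stayed between -4.66 and -4.54 in all settings. The alternatives without si-CTRL replicate 1 and si-SAM68 replicate 2 were singled out, and the loci with a length tested alone, after seeing the data.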
